A study of Rattus norvegicus with 4 samples.

Results

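Germ cell genes were followed through cultures of Sertoli cells, the somatic nurse cells of the seminiferous tubule. The list held 36 genes known from male germ cells, in 3 stages: 7 of stem cells and spermatogonia, 17 of meiosis and 12 of spermatids. Members were taken by gene symbol, with 1 probe set per gene, and 24 of the 36 had a probe set named by a single symbol, out of 14217 genes so named on the array. The other 12 were not analysed here: Zbtb16, Stra8, Dazl and Ddx4 of the first stage, Dmc1, Hormad1, Mael, Piwil1, Pgk2, Clgn and Brdt of meiosis, and Spag6 of spermatids.

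The cells came from testes of male Sprague-Dawley rats aged 20 days and were kept for 72 h in serum-free medium. The control group had no treatment and the other group had cAMP, the second messenger of follicle-stimulating hormone, with form and dose not given in the sources used here. Each group had 2 arrays, labelled biological replicates 1 and 2. The labels do not say whether replicates came from separate animals or cell preparations. Each p-value thus reflects only how far these 4 arrays scatter, and that scatter may be technical. In the fit, the scatter of each gene was drawn toward that of probe sets of like signal. The standard error (SE) of a gene therefore does not come from its own values alone.

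Spermatogenesis begins with stem cells and spermatogonia that divide by mitosis, passes through meiosis in spermatocytes, and ends with spermatids that build an acrosome and a tail and pack their DNA with protamines. All these cells lie against or between Sertoli cells, and preparations of Sertoli cells can carry germ cells along. In the young rat the first wave of germ cells reaches meiosis before spermatids begin to elongate. In germ cells cAMP acts in part through CREM, a transcription factor that binds the cAMP response element (CRE) in promoters of several spermatid genes.

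Upstream sequences of 5 members are shown first, since motif counts by stage are set beside the array signals further on. They are RefSeq sequence of build GRCr8, written 5′ to 3′ on the strand of the gene and ending at or before the base ahead of the annotated start. For Sycp3 (chr7:24761226-24761475, plus strand) and Tnp1 (chr9:82044279-82044528, minus strand) all 250 upstream bases are given. For Tdrd1 (chr1:265880913-265880968, plus strand), Ddx25 (chr8:42168081-42168113, minus strand) and Ldhc (chr1:106522939-106522993, plus strand) a window around the motif is given. Capitals mark the E-box CACGTG, a site of basic helix-loop-helix factors, in Sycp3, Tdrd1 and Ddx25, the full CRE TGACGTCA in Tnp1, and the CRE half-site TGACG in Ldhc.
Sycp3: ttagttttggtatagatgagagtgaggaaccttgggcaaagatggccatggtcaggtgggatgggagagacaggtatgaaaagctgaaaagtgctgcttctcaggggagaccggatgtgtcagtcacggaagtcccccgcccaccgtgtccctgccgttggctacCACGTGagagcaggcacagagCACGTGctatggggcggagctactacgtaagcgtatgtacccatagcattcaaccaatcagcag
Tdrd1: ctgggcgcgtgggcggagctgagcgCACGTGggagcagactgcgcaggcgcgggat
Ddx25: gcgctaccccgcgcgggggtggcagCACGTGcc
Ldhc: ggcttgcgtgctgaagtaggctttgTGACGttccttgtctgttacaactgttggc
Tnp1: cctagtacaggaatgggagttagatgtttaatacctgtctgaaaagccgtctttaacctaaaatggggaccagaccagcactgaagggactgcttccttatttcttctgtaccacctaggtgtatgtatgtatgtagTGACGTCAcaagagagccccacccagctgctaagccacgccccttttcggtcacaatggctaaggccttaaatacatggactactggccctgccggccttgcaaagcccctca

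Of the members measured, most meiotic genes gave signal above background in the cultures, while spermatid genes other than Tcp11 were at or near it. Background was set at a signal of 14.2, the highest value among 27 probe sets for Bacillus genes, which rat RNA does not contain. Of the 10 meiotic members with a probe set, 9 lay above it on all 4 arrays, the exception being Ccna1. Of the 11 spermatid members, 1 did (Tcp11), 8 lay at or below it on every array, and Prm2 and Acr passed it on 1 and 2 arrays. Of the 3 spermatogonial members, Piwil2 and Tex14 were above it on all arrays and Gfra1 on 3. Signal above this level was common, since 67.9% of all 14217 named genes passed it on all 4 arrays and 17.3% on none. Arrays of whole-culture RNA do not show which cell held a transcript, and fewer cells of a type cannot be told apart from less RNA per cell.

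None of the 12 members tested passed the threshold between cAMP and control. By limma with Benjamini-Hochberg adjustment 0 were higher and 0 lower, where 8.27% of all 10035 tested genes were higher and 7.16% lower, 15.4% together. Of the members 0 had an unadjusted p under 0.05, against 30.1% of all tested genes. The smallest adjusted p was 0.281, for Ldhc. All 12 intervals at 95% confidence lay between -0.94 and 0.73 on the log2 scale. That scale adds a constant to each signal, and the intervals lay within a 2-fold change of this sum either way. A 2-fold change of the signal itself is smaller on this scale for dim genes, so it is not excluded for every member. The median log2 difference was -0.12 over the 12 and -0.03 over all tested genes. The members just inside and outside the filter on dim genes were Spo11, with a mean log2 value of 5.57, and Gfra1, with 4.93.

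**Figure D1:**
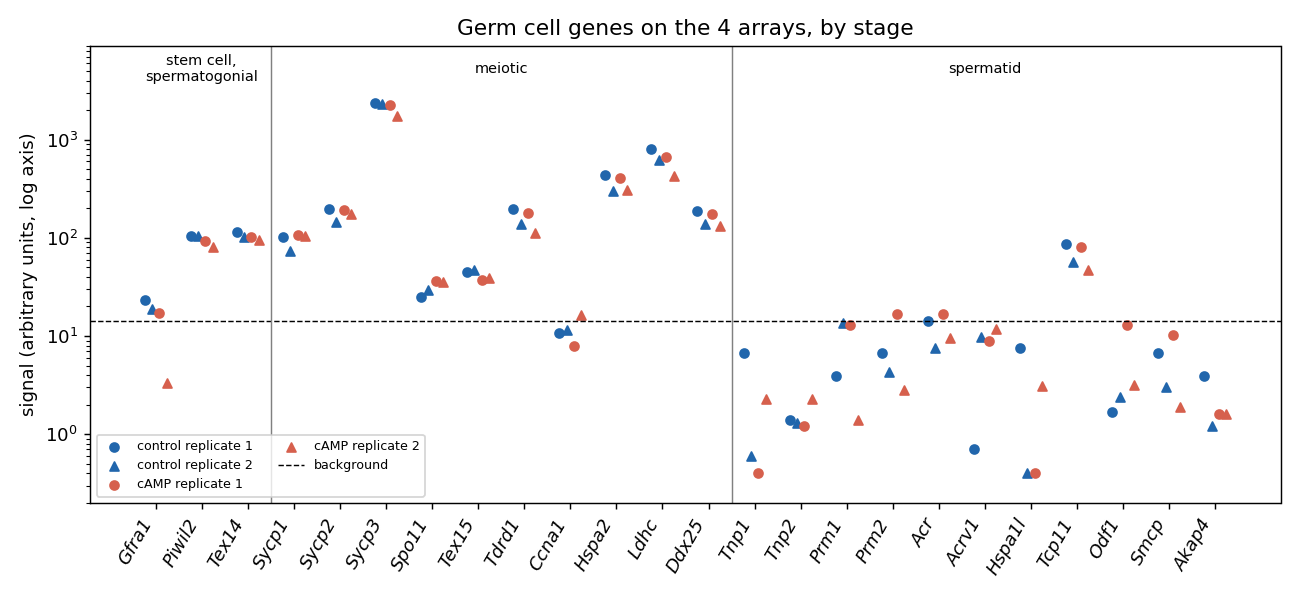
Signal of the 24 germ cell genes on each of the 4 arrays, on a log axis and grouped by stage; circles are replicate 1, triangles replicate 2, and the dashed line is background at 14.2. Meiotic genes other than Ccna1 lie above the line on all arrays and spermatid genes other than Tcp11 at or near it; heights of different genes cannot be compared, since probe sets differ in response.

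Of the earliest stage, Gfra1, the receptor of the stem cell factor GDNF, read 23.4 and 18.7 on the control arrays, replicate 1 first here and throughout, and 17 and 3.3 on the cAMP arrays. Its cAMP arrays both lay below both control arrays, but it was too dim to be tested, and its other probe set was at background on all arrays. Piwil2, which binds piRNAs that silence transposons, read 104.6 and 104.3 in control and 93.9 and 79.9 with cAMP. Its groups did not overlap. Even so, its log2 difference of -0.23 ± 0.18 (limma SE, n = 2 arrays per group) did not pass (limma adjusted p = 0.458). Tex14, needed for the bridges that join germ cells, read 113.5 and 101.9 in control against 102.3 and 95.9 with cAMP, so the groups overlapped (-0.10 ± 0.18).

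The synaptonemal complex, which zips paired chromosomes together in meiosis, was represented by 3 members. Sycp3, of its lateral elements, read 2339.6 and 2298 in control and 2257.7 and 1753.6 with cAMP. Both cAMP arrays lay below both control arrays, but cAMP replicate 2 alone stood apart, and the log2 difference of -0.22 ± 0.14 did not pass (limma adjusted p = 0.373). Its interval ran from -0.56 to 0.12. Its partner Sycp2 read 196.3 and 143.9 in control and 190.8 and 176.5 with cAMP, with full overlap of the groups (0.11 ± 0.19). Sycp1, the transverse filament that spans the complex, read 101.0 and 72.6 in control and 105.7 and 104.0 with cAMP. Its cAMP arrays were both above both control arrays, by little for control replicate 1, and the difference was 0.25 ± 0.20.

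Recombination was represented by Spo11 and Tex15. Spo11, the enzyme that makes the DNA breaks from which recombination starts, read 25.1 and 29.7 in control and 36.3 and 35.3 with cAMP. The groups did not overlap, with the cAMP arrays higher, but the difference of 0.26 ± 0.20 did not pass (limma adjusted p = 0.460). Tex15, needed to repair those breaks, went the other way without overlap, from 44.9 and 46.9 in control to 37.5 and 38.6 with cAMP (-0.20 ± 0.19). Among the 12 tested members, groups did not overlap for 2 with cAMP higher (Sycp1, Spo11) and 3 with cAMP lower (Piwil2, Sycp3, Tex15). Over all tested genes the shares were 28.8% higher and 32.6% lower, so these counts set the members apart in neither direction.

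Among the remaining meiotic genes, Ldhc, the germ cell lactate dehydrogenase, read 811.6 and 627.2 in control and 659.7 and 427.4 with cAMP. The groups overlapped, since control replicate 2 lay below cAMP replicate 1. Its log2 difference, -0.41 ± 0.22 with an interval from -0.94 to 0.11, was the largest of the 12 tested. It was -0.11 without cAMP replicate 2 and -0.72 without cAMP replicate 1. Hspa2, a chaperone abundant in spermatocytes but also made elsewhere, read 439.9 and 302.1 in control and 408.9 and 305.9 with cAMP (-0.04 ± 0.22). Its other probe set read 258.8 and 141.2 in control and 255.1 and 214.8 with cAMP, lowest again on control replicate 2. That probe set had a log2 difference of 0.27, of opposite sign.

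The RNA helicase gene Ddx25, also called gonadotropin-regulated testicular helicase, read 185.6 and 139.2 in control and 173.7 and 132.5 with cAMP (-0.08 ± 0.21). Tdrd1, a scaffold of the granules in which piRNAs are made, read 195.9 and 136.9 in control and 178.1 and 113.0 with cAMP (-0.19 ± 0.25). For both genes replicate 1 was above replicate 2 in each group by more than the groups differed. Ccna1, the A-type cyclin of meiosis, stayed at background on 3 arrays, at 10.8 and 11.6 in control and 8.0 with cAMP, and read 16.5 on cAMP replicate 2.

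**Figure D2:**
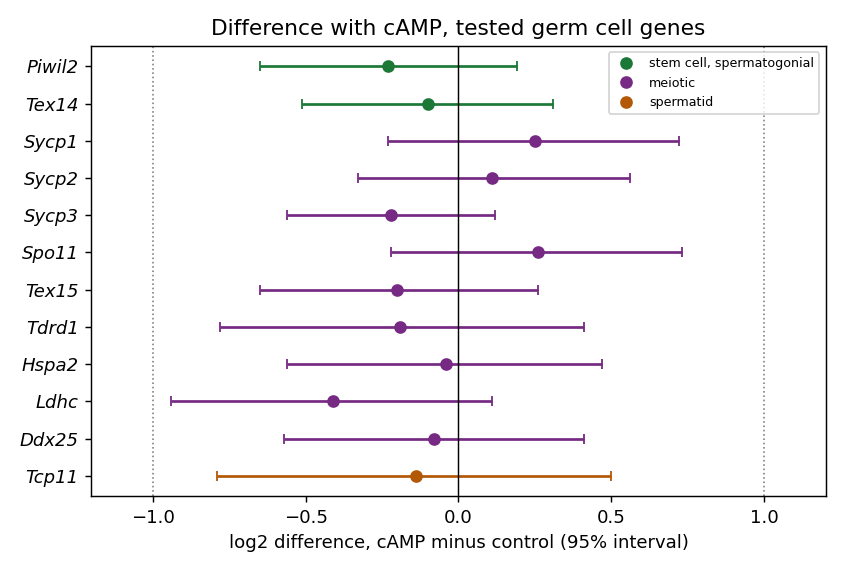
Log2 difference, cAMP minus control, of the 12 tested germ cell genes with 95% intervals, coloured by stage. Dotted lines mark a 2-fold change of signal plus the constant added before taking logs, not of the signal itself. Every interval spans 0 and stays within the dotted lines, the widest reach being -0.94 for Ldhc.

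The spermatid genes that pack DNA were not detected above background in either group, with 1 value excepted. The transition proteins replace histones before protamines do. Tnp1 read 6.7 and 0.6 in control and 0.4 and 2.3 with cAMP, and Tnp2 between 1.2 and 2.3 on all arrays. The protamine gene Prm1 read 3.9 and 13.5 in control and 12.9 and 1.4 with cAMP. Prm2 read 6.7 and 4.3 in control, and 16.7 and 2.8 with cAMP, the first just above background. Replicates differed from each other as much as groups did, and no fold change is given where both groups lie at background.

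Acrosome and tail genes were likewise dim. Acr, the acrosomal protease acrosin, read 14.3 and 7.5 in control and 16.9 and 9.5 with cAMP, so replicate 1 of each group was at or just above background and replicate 2 below it. Acrv1, another acrosomal protein, read 0.7 and 9.7 in control against 8.9 and 11.8. Odf1 of the outer dense fibres reached 12.9 at most, Smcp of the sperm mitochondrial sheath 10.3 and Akap4, the kinase anchor of the fibrous sheath, 3.9. The Hsp70 family gene Hspa1l reached 7.5. Tcp11, a testis gene of the t-complex region, was the exception, at 86.9 and 56.3 in control and 80.0 and 47.5 with cAMP. Its groups overlapped and its difference was -0.14 ± 0.27 (limma adjusted p = 0.778).

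Within each group, the array labelled replicate 2 carried less of most germ cell transcripts than the array labelled replicate 1. Of the 12 tested members, 10 were lower on replicate 2 in both groups, where 30.9% of all tested genes were. Of the 2 exceptions, Tex15 was slightly higher on replicate 2 in both groups, as were 21.2% of all tested genes, and Spo11 was higher in control alone. Tcp11 on replicate 2 was at 64.8% of replicate 1 in control and 59.4% with cAMP, Tdrd1 at 69.9% and 63.4%, Hspa2 at 68.7% and 74.8%, Ldhc at 77.3% and 64.8%, and Ddx25 at 75.0% and 76.3%. The gap was uneven among the members: in control Sycp3 was at 98.2% and Piwil2 at 99.7%, and with cAMP Sycp1 was at 98.4%. The median log2 difference of replicate 1 over replicate 2 was 0.37 in control and 0.27 with cAMP over the 12 members, against 0.05 and 0.02 over all tested genes.

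Summed over all 24 members, the control signal was 4732.6 for replicate 1 and 4133.2 for replicate 2, and the cAMP signal 4431.8 and 3369.8. Without Sycp3, which made up much of the sum, it was 2393.0 and 1835.2 in control and 2174.1 and 1616.2 with cAMP. In both sums the groups overlapped, and each replicate 2 lay below both arrays labelled replicate 1. Summed Sertoli cell markers did not move that way, at 25276.4 and 27191.3 in control and 28201.7 and 28063.4 with cAMP. Their sum on replicate 2 was higher in control and slightly lower with cAMP, at 99.5% of replicate 1. Clu, Cldn11 and Aard made up much of that sum. Of 12 tested Sertoli markers, 2 were lower on replicate 2 in both groups. These were Shbg, at 72.8% in control and 81.4% with cAMP, and Amh, at 84.4% and 84.7%. Actin probe sets at the 3′ and 5′ ends, whose ratio grows as RNA is degraded, gave ratios of 1.80 and 2.25 in control and 1.86 and 1.64 with cAMP. The actin ratio was higher on replicate 2 in control and lower on replicate 2 with cAMP. The same ratio for Gapdh went the other way, at 0.966 and 0.903 in control and 0.93 and 0.937 with cAMP. The part of cell makeup or preparation in the replicate gap was not tested.

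**Figure D3:**
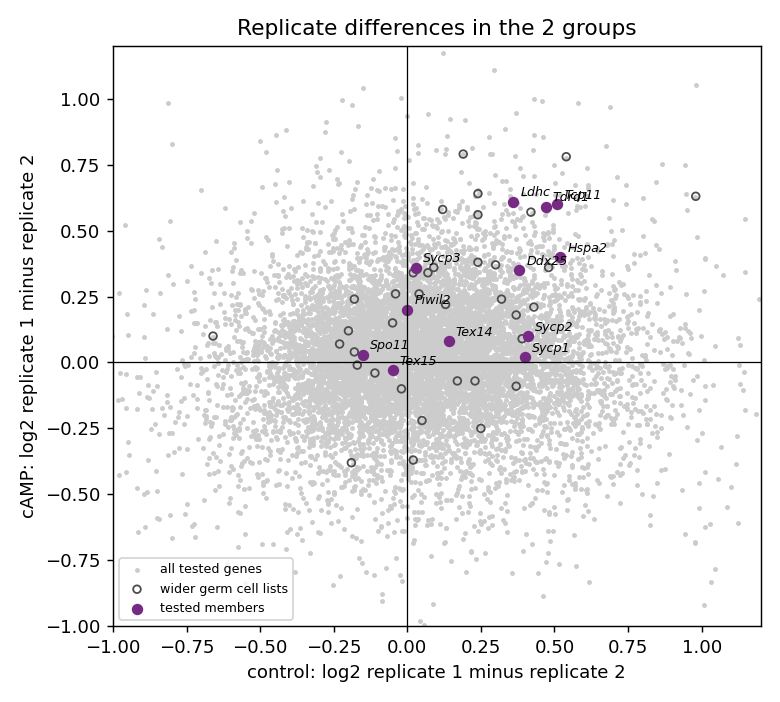
Log2 signal of replicate 1 minus replicate 2 in control (x axis) and with cAMP (y axis) for each tested gene; grey points are all tested genes (78 lie outside the axes), open circles the wider germ cell lists and filled points the 12 members. Filled points gather in the upper right, where replicate 2 is lower in both groups; Spo11 and Tex15 do not.

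Wider lists of 113 other germ cell genes were read the same way. In the meiotic list 19 of the 20 genes with a probe set were above background on all arrays, against 14 of 28 in the spermatid list and 4 of 11 in the spermatogonial list. Of the 37 genes tested, 0 were higher and 0 lower by limma, against 15.4% of all tested genes called, and 4 had an unadjusted p under 0.05 (Etv5, Foxo1, Tdrd7 and Adam2), against 30.1%. Their median log2 difference was -0.13. Of the 37, 19 were lower on replicate 2 in both groups, or 51.4%, against 30.9% of all tested genes.

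Tex101, a surface glycoprotein of germ cells, read 706.1 and 595.7 in control and 683.5 and 459.0 with cAMP. Tcfl5, a basic helix-loop-helix factor of spermatocytes, read 347.4 and 254.8 in control and 371.7 and 245.6 with cAMP. Both were lowest on the replicate 2 arrays, while Tbpl1, a relative of the TATA-binding protein, read 917.9 and 990.3 in control and 854.1 and 880.3 with cAMP. On the spermatid list, the sperm protein genes Crisp2 and Ropn1l were well above background, Crisp2 at 595.0 and 499.8 in control and 560.0 and 354.0 with cAMP, and Ropn1l at 550.1 and 480.8 against 527.6 and 298.4. Odf2, also a centrosomal gene of other cells, read 267.1 and 202.4 in control and 229.2 and 200.6 with cAMP. On the spermatogonial list Uchl1 read 877.6 and 438.4 in control and 784.3 and 501.6 with cAMP, and Taf7l read 211.3 and 205.3 against 295.7 and 244.3. Foxo1, which many somatic cells express, read 53.9 and 143.9 in control and 176.1 and 191.1 with cAMP (0.92 ± 0.35, limma adjusted p = 0.141).

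Markers of the cultured cells and of their possible companions were checked on the same arrays. Of 14 Sertoli markers with a probe set, 12 were above background on all arrays, among them Clu, Cldn11, Aard and Inha. Of the 12 tested, 4 rose and 2 fell with cAMP by limma, against 8.27% and 7.16% of all tested genes. Of 6 Leydig markers Cyp17a1, Hsd3b1 and Lhcgr were at background on every array, Insl3 passed it on 1, Hsd17b3 on 3, and Cyp11a1, the enzyme that starts steroid synthesis, on all 4, between 40.6 and 50.9. At background on every array were also 4 of 7 endothelial markers and 5 of 11 macrophage markers, against 17.3% of all named genes. Above it on all 4 arrays were 3 endothelial and 4 macrophage markers, against 67.9% of all named genes. Of the latter, Mrc1 read 133.4 and 208.0 in control and 125.5 and 107.2 with cAMP. Another 2 macrophage markers, Csf1r and Cd68, passed it on some arrays. Cd68, too dim to be tested, read 4.1 and 6.2 in control and 28.1 and 45.2 with cAMP. The summed signal ranged from 90.1 to 95 in control and 73.5 to 90.1 with cAMP for 6 Leydig markers, from 256.5 to 392.9 in control and 250.9 to 278.9 with cAMP for macrophage markers, and from 194.5 to 271.4 in control and 124.1 to 131.5 with cAMP for 7 endothelial markers. Most of the endothelial difference was Kdr, a receptor of VEGF, which fell from 187.3 and 130.8 to 57.5 and 58.1 (-1.23 ± 0.21, limma adjusted p = 0.00972). Peritubular myoid markers summed to 652.0 and 505.6 in control and 200.6 and 241.4 with cAMP, with Tagln and Synpo2 lower and Des higher by limma. Of these 4 lists the Leydig sum alone was lower on replicate 2 in both groups. That sum lay near background, and 5 of its 6 genes were too dim to be tested.

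Upstream sequences were then compared by stage. Of the 36 members, 31 had an entry among the promoters used here, and 250 bases ahead of each start were searched on both strands. The E-box CACGTG was found ahead of 8 of 16 meiotic members, 1 of 5 spermatogonial members (Ddx4) and 0 of 10 spermatid members. It stood in 5.59% of all 33469 promoters and in 8.90% of 8468 promoters of genes tested on the array. In the wider lists it stood ahead of 4 of 28 meiotic, 2 of 17 spermatogonial and 3 of 42 spermatid genes, so the high share of the meiotic members was not seen among other meiotic genes. Sycp3 held it at 85 and 64 bases ahead of the start, Tdrd1 at 87 and Ddx25 at 8, as shown in the sequences above. The other meiotic members with it were Hormad1, Mael, Piwil1, Pgk2 and Brdt, none of which was measured here.

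CpG dinucleotides, the targets of DNA methylation, were counted in the same windows. The median was 13 for meiotic members, 15 for spermatogonial members and 3.5 for spermatid members, against 5 over all promoters and 17 over promoters of genes tested on the array. In the wider lists the medians were 12.5, 12 and 5 for the same stages. Within the spermatid list Tcp11, the member above background on all arrays, had 20, and the unmeasured Spag6 had 24. Hspa1l had 9, Acr 8, Tnp1 5, Tnp2 and Akap4 2 each, Prm1 and Smcp 1 each and Acrv1 0. The meiotic Ccna1, above background on only 1 array, had 23, so a low signal did not always go with few CpG. Whether signal and CpG count are linked was not tested. The E-box itself holds a CpG, so these measures are not independent.

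The full CRE TGACGTCA stood ahead of Tnp1, 113 bases from the start, and of Spag6, or 6.45% of members. It stood in 1.59% of all promoters and in 3.14% of promoters of genes tested on the array. In the wider lists it stood ahead of 0 of 17 spermatogonial, 0 of 28 meiotic and 1 of 42 spermatid genes. The half-site TGACG, which the full CRE contains, stood ahead of 8 of 31 members, or 25.8%. Its share was 18.2% of all promoters and 29.7% of promoters of genes tested on the array. In the wider lists the half-site stood ahead of 3 of 17 spermatogonial, 1 of 28 meiotic and 10 of 42 spermatid genes. Of members with a half-site or CRE that were measured, Ldhc and Sycp2 did not pass the test with cAMP, and Tnp1, Acr and Hspa1l were at or near background in both groups. A match is a description of letters, not a sign that a factor binds there.

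**Figure D4:**
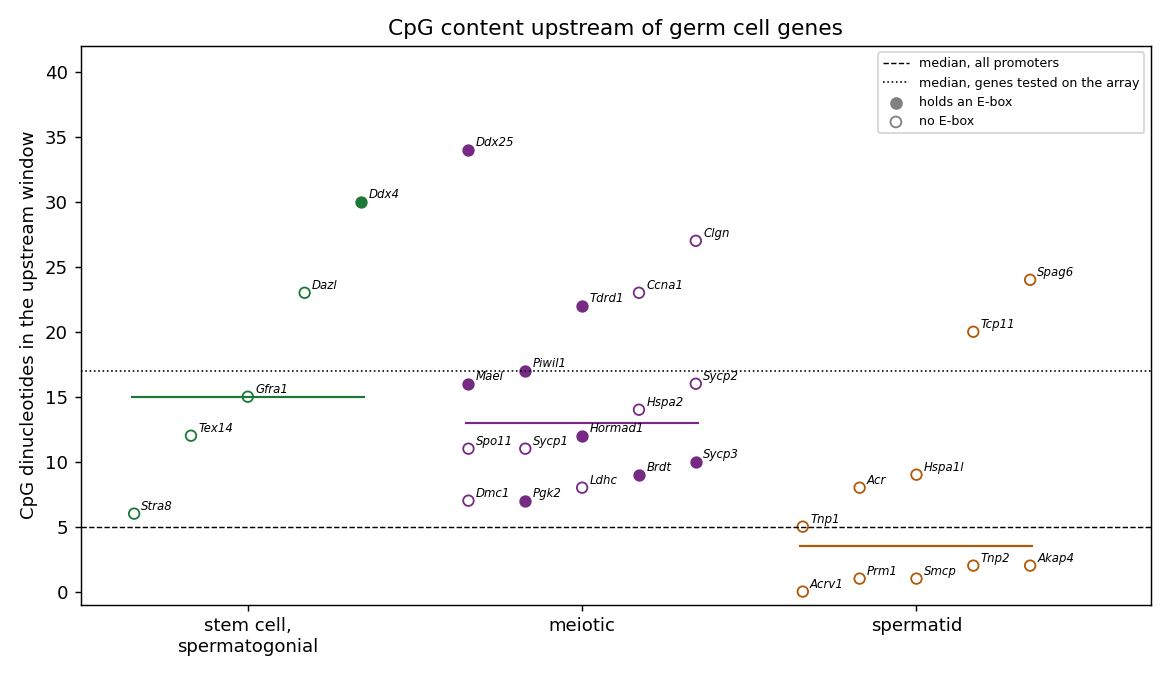
CpG dinucleotides in the 250 bases upstream of 31 germ cell genes by stage; filled points hold an E-box, short lines are stage medians, and the dashed and dotted lines are medians over all promoters (5) and over genes tested on the array (17). Spermatid genes other than Spag6 and Tcp11 lie at 9 or below, and filled points occur in the other stages.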

How the data were processed

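RNA from cultured rat Sertoli cells was measured on 4 one-colour Affymetrix arrays, 2 control and 2 cAMP. The authors deposited linear intensities, 1 signal per probe set, and the submitters' processing notes name GCOS and MAS5. Versions and settings were not given in the sources used here. Each array's mean, with 2% of values trimmed at either end, was 125.

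From these, log2(signal + 16) was computed with no further normalization; with the pseudocount of 16, changes of dim genes come out too small. Probe sets, controls apart, were tested where their mean log2 value over the 4 arrays reached the 40th percentile, 5.10. This left 18625 probe sets and 10035 named genes. The test was two-sided and used lmFit and eBayes with an intensity trend (limma 3.58.1, R 4.3.3), with Benjamini-Hochberg adjustment over all tested probe sets and a threshold of 0.05. Tested on simulated data with independent scatter between arrays, the fit recovered most 2-fold changes of signal + 16. It made more false calls than the threshold allows for, so calls near 0.05 are the least secure. For dim genes a 2-fold change of the signal itself is smaller on this scale, and its recovery was not tested. The number of arrays limits the precision.

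Of 31099 probe sets, 20832 carried 1 gene symbol in the platform annotation, 436 several and 9831 none; symbols were brought up to date through a RefSeq gene table of GRCr8, which matched 20764. Where a gene had more than 1 probe set, that of highest mean stood for it. Promoter sequences are from RefSeq, build GRCr8.

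The members and all lists were chosen with earlier results of these data known. The rule for named genes takes every member with a probe set, the 3 genes of highest mean and up to 8 called genes of each wider germ cell list, and up to 4 genes of each other list; a gene named outside it was picked with its values known. There were 12 alternatives set at the start (pseudocount, filter, quantile normalization, trend, probe sets averaged, replicate block, each array left out) and 2 more for the replicate counts, chosen after seeing the data.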

Additional observations from a re-analysis of the deposited data

How the results depend on the processing

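By limma 0 tested members were higher and 0 lower under each of the 12 alternative settings, with the smallest adjusted p between 0.111 and 0.737. The filter changed how many were tested, 24 without it and 10 at the 60th percentile. No alternative gave more than 1 member an unadjusted p under 0.05. This was Ldhc with the replicate block and without control replicate 2 or cAMP replicate 1, and Sycp3 after quantile normalization. With the replicate block 0 members were higher and 0 lower, with the smallest adjusted p at 0.111; replicate 1 minus replicate 2 correlated at r = 0.163 between the groups over 18625 probe sets, and the labels do not say that the numbers pair samples. The sign of the difference changed under some alternative for 5 uncalled members: Hspa2, Ddx25, Tcp11, Tdrd1 and Sycp2.

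The meiotic median of all members with a probe set, -0.06, ranged from -0.21 to 0.10 with 1 array left out, and the spermatogonial median, -0.23, from -0.33 to -0.13. The wider lists gave 1 call with the replicate block (Foxo1) and 3 without control replicate 2 (Etv5, Foxo1 and Tdrd7). With an array left out, 1 group holds a single array, which is assumed to vary like the other group, and the calls rest on that. Over all named genes 1549 were called, 1014 without the filter, and from 471 to 2606 with 1 array left out. The count of members lower on replicate 2 in both groups was 10, and 9 after quantile normalization, where 32.2% of all tested genes were; scaling to the median of the tested probe sets gave 10, against 35.3%. Signals near 14.2 limit what can be said of spermatid members other than Tcp11.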

Other observations

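Several germ cell genes, some of them members and some on the wider lists, have close relatives that somatic cells use, and these relatives were read too. Ldha, the lactate dehydrogenase subunit of many tissues, read 1886.3 and 1598.7 in control and 2596.6 and 2424.1 with cAMP, a rise of 0.53 ± 0.13 on the log2 scale (limma adjusted p = 0.0355), while Ldhc did not pass, at -0.41 ± 0.22. Ldhb read 4019.6 and 4066.9 in control and 3141.4 and 3084.0 with cAMP and did not pass (-0.38 ± 0.10, limma adjusted p = 0.0527). Pgk1, the somatic relative of the unmeasured Pgk2, rose from 481.0 and 381.2 to 993.6 and 946.9 (1.15 ± 0.15). Rad21, the cohesin subunit that meiosis in part replaces, fell from 1807.1 and 2034.9 to 1271.7 and 1165.3 (-0.65 ± 0.13). Whether a germ cell gene and its relative differed in response was not tested. Summed over 10 such relatives the signal on replicate 2 was 99.2% of replicate 1 in control and 98.7% with cAMP, where the 24 germ cell members stood at 87.3% and 76.0%. Ldhb made up much of the sum of the relatives. Of the 10 relatives, 3 were lower on replicate 2 in both groups, or 30.0%, against 30.9% of all tested genes. Among these were Pgk1, at 79.3% in control and 95.3% with cAMP, and Ldha, at 84.8% and 93.4%.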
